A study of Mus musculus with 24 samples.

Results

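Bulk RNA sequencing compared Achilles tendon of AMPKcKO mice (cKO) and wildtype mice at 1 month of age. The comparison holds 12 of the 24 libraries of the series, taken by the genotype and the age written in their titles: 6 cKO and 6 wildtype libraries, with 3 of each sex in each genotype. All came from mice with cage activity, the labels put them in 1 batch, and total RNA was taken from pulverised whole tendon. The title of the study says that AMPKα1, the catalytic subunit encoded by Prkaa1, was lost. The labels name neither the promoter that drives cre, the cells it acts in, the deleted exons, the strain nor the hour of collection. Nor do they say that each library came from its own mouse, so the p-values reflect the variation among these libraries, part of which may be technical. The other 12 libraries carry no age in their titles (the design text names ages of 1 and 3 months) and entered the estimate of the spread in every test. They are otherwise used only where named.

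AMP-activated protein kinase is a trimer of a catalytic α, a scaffold β and a nucleotide-sensing γ subunit, and it restrains growth through mTORC1 and favours fuel use when cellular energy is low. Tendon fibroblasts secrete, fold and crosslink collagen I, and they carry a circadian clock. In that clock BMAL1 (the product of Arntl) pairs with CLOCK or NPAS2 and activates the Per, Cry, Nr1d and Dbp genes through E-boxes, PER and CRY proteins repress that pair, and the NR1D receptors (REV-ERBs) repress Arntl and Npas2 through ROR elements. AMPK is known to phosphorylate cryptochromes, which marks them for degradation.

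Library totals were 7075694 to 12491926 counts in wildtype and 8575962 to 20386305 counts in cKO, and levels are given as CPM, counts scaled to a common library total after TMM normalization. Tendon transcript was abundant in all 12 libraries: Col1a1, the main collagen I chain, took 4.05% to 13.2% of all counts in wildtype and 5.12% to 8.50% in cKO. The median Col1a1 share was 11.8% in wildtype and 7.21% in cKO. Muscle transcript varied as well. Ttn, the sarcomere protein titin, took 1.61% to 9.32% of counts in wildtype and 2.88% to 7.50% in cKO, with medians of 2.39% and 6.75%. Wildtype male 2 stood apart by its Ttn share of 9.32% and Col1a1 share of 4.05%, and wildtype male 3 by keratinocyte transcript. Apart from wildtype male 2, every wildtype library had a Col1a1 share of 10.1% or more, above all cKO libraries. All 22 skeletal muscle marker genes had higher values in cKO, against 48.5% of all genes tested. Of the 22, 6 were at an unadjusted p under 0.05, a class that held 3.31% of all genes tested. The median log2 fold change of the 22 was 1.00. In bulk tissue, fewer cells of a type and less RNA per cell cannot be told apart.

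A cre transcript was listed at 1.16 to 5.14 FPKM, a level scaled to transcript length and depth, in all 6 cKO libraries and at 0 in all 6 wildtype libraries, so genotype and presence of cre cannot be told apart. Prkaa1 (ENSMUSG00000050697, GRCm38 chr15:5143861-5181899, plus strand) was counted in every cKO library. Wildtype females had 18.6, 17.6 and 23.2 CPM, wildtype males 24, 15.4 and 22.3, cKO females 16.3, 17 and 17, and cKO males 12.3, 15.4 and 21.3. The groups overlapped, and the log2 fold change of -0.28 ± 0.17 (SE) did not pass (edgeR quasi-likelihood test, Benjamini-Hochberg adjusted p = 0.703). Since the deleted exons are not named, counts over the whole gene do not check the deletion. Of the other subunit genes, Prkaa2 (the α2 catalytic subunit) was at a median of 27.8 CPM in wildtype and 77.2 CPM in cKO (log2 fold change 0.72 ± 0.42). Wildtype male 2, at 141 CPM, was above every cKO library for that gene. Prkag3, the γ3 subunit of fast muscle, ranged from 0.709 to 5.53 CPM in wildtype and from 1.26 to 78.0 CPM in cKO, where cKO males 2 and 3 were the 2 highest libraries. The log2 fold change of Prkag3 was 2.12, the highest of the 7 subunit genes. The subunit genes Prkab1, Prkab2, Prkag1 and Prkag2 had log2 fold changes between -0.07 and 0.79. The highest of these, of Prkab2, turned to -0.18 with the muscle marker level as a covariate. Of the 7 subunit genes, 1 had a higher value at an unadjusted p under 0.05, and none passed after adjustment.

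Few other genes of the AMPK pathway had a low p. Of all genes tested, 3.31% had an unadjusted p under 0.05 with a higher value in cKO and 4.48% with a lower value. Among 8 genes for kinases and scaffolds upstream of AMPK, 1 was in the higher class: Strada, the pseudokinase partner of LKB1, had a median of 5.55 CPM in wildtype and 7.46 CPM in cKO (log2 fold change 0.38 ± 0.16). Among 21 genes of AMPK substrates and effectors, none was in the higher class and 2 were in the lower. These were Foxo3, a forkhead factor of catabolic genes, at a median of 76.8 against 59.5 CPM (-0.33 ± 0.11), and Crtc2, a CREB coactivator, at 14.0 against 11.4 CPM (-0.31 ± 0.15). The median log2 fold change of the substrate genes was -0.01, the same as over all 19137 genes tested.

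Only 2 of the 19137 genes passed an adjusted p of 0.05. Arhgef4 fell in cKO, and Bop1 rose, which puts 0.00523% of tested genes in each direction. Arhgef4 (ENSMUSG00000037509, GRCm38 chr1:34678188-34813309, plus strand) encodes ASEF, a guanine nucleotide exchange factor of small GTPases. It was at 11.3, 11.7 and 11 CPM in wildtype females and 8.79, 8.08 and 11.6 CPM in wildtype males, against 4.17, 3.85 and 4.00 CPM in the cKO females and 8.57, 4.89 and 6.89 CPM in the cKO males. The 3 cKO females lay close together below all others, and cKO male 1 was the 1 library that reached into the wildtype range. The log2 fold change was -0.99 ± 0.16 (adjusted p = 0.0425), with -1.50 ± 0.22 in females and -0.48 ± 0.22 in males.

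Bop1 (ENSMUSG00000022557, GRCm38 chr15:76452989-76477277, minus strand) encodes a factor of large ribosomal subunit assembly. It was at 11.9 to 16.8 CPM in wildtype, at 462, 303 and 413 CPM in cKO females and at 29.6, 547 and 303 CPM in cKO males (log2 fold change 4.62 ± 0.75, adjusted p = 0.0425). All 6 cKO libraries were above all wildtype libraries, and cKO male 1, at 29.6 CPM, was by far the lowest of them. Scx, the tendon transcription factor scleraxis, lies inside the span of Bop1 on the opposite strand (chr15:76457452-76459458). It was at 28.0, 59.5 and 21.9 CPM in wildtype females and 54.4, 25.2 and 63.7 CPM in wildtype males. The cKO libraries had 387, 306 and 346 CPM (females) and 51.0, 699 and 389.6 CPM (males), a log2 fold change of 3.12 ± 0.64 that did not pass (adjusted p = 0.128). Most other tendon markers went the other way. Of 20 tendon fibroblast markers, 18 had lower values in cKO, and the median log2 fold change was -0.29. Scx was the only 1 of them at an unadjusted p under 0.05. The deposited FPKM table lists an eGFP sequence at 0 in every wildtype library, at 854 to 1256 in 5 cKO libraries and at 11.8 in cKO male 1. Bop1, Scx and eGFP thus marked the same library as low, and cKO male 1 lay within the wildtype range for Scx. The strand setting of the counting is not given in the sources used here, so reads of Bop1 and Scx may not be separable, and the part of a transgene in their levels was not tested. Of 23 genes of ribosome biogenesis, Bop1 was the only one called. The others had log2 fold changes at or under 0.43, the value of Nolc1, a nucleolar phosphoprotein.

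Both calls depended on the settings and on single libraries. Arhgef4 did not pass in a fit of the 12 libraries alone (adjusted p = 0.143) or with an additive sex term (adjusted p = 0.159), where Bop1 did. With a robust estimate of the spread, an alternative chosen after the data were seen, neither passed (adjusted p = 0.0628 for Arhgef4 and 0.0727 for Bop1). Of the 12 libraries compared, leaving out wildtype females 1, 2 or 3, wildtype males 1 or 3, cKO females 1 or 2, or cKO males 2 or 3 left no gene called. Without cKO male 1, 57 genes passed (14 higher, 43 lower); without cKO female 3, 18 passed; without wildtype male 2, Ccn2, Arhgef4 and Sertad2 passed, all lower in cKO. The adjusted p ranged from 0.00837 to 0.215 for Arhgef4 and from 0.00605 to 0.215 for Bop1 over all 24 libraries left out in turn.

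**Figure D1:**
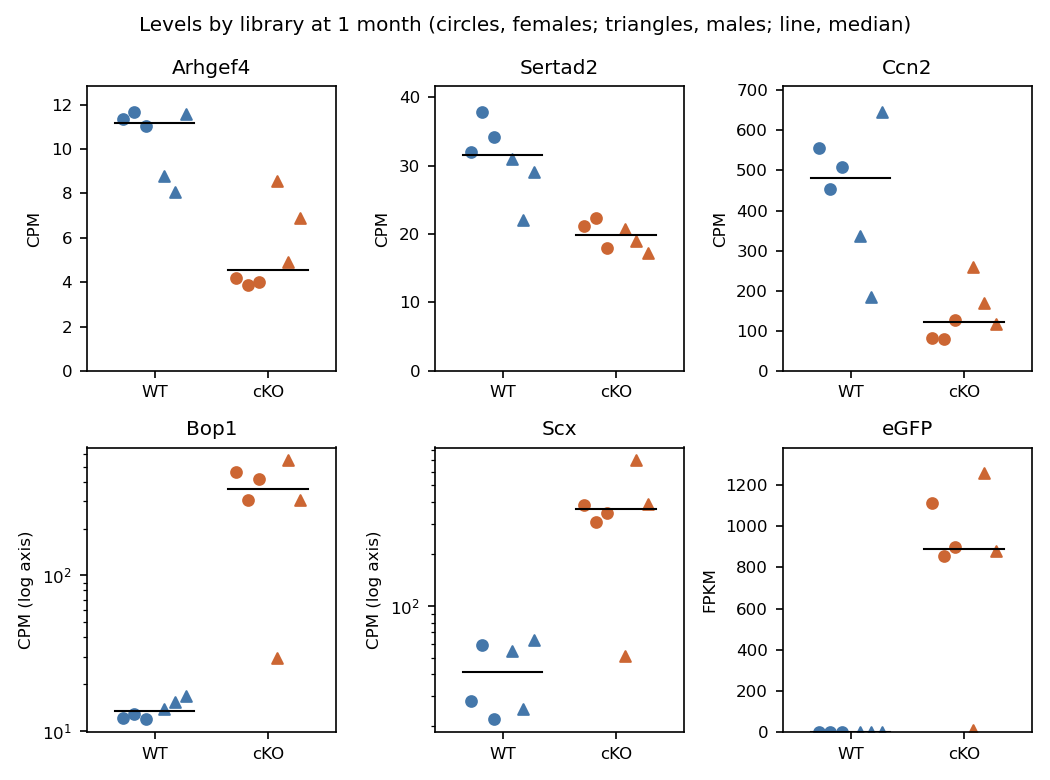
Levels of 6 transcripts in each of the 12 libraries, in CPM for genes (log axis for Bop1 and Scx) and in FPKM for eGFP; circles are females, triangles males and lines group medians. In Bop1, Scx and eGFP the single low cKO triangle is cKO male 1 (29.6 CPM, 51.0 CPM and 11.8 FPKM).

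The next genes by p did not pass, and their values are given as such. Ccn2 (GRCm38 chr10:24595442-24598683, plus strand) encodes connective tissue growth factor, a matricellular protein induced by TGF-β and by mechanical load. Wildtype libraries had 555, 453 and 508 CPM (females) and 337, 185 and 646 CPM (males), and cKO libraries 82.0, 80.5 and 127 CPM (females) and 259, 169.7 and 116 CPM (males). Wildtype male 2, at 185 CPM, was the 1 wildtype library under the highest cKO library (log2 fold change -1.75 ± 0.31, adjusted p = 0.0753). Sertad2, a transcriptional coregulator (GRCm38 chr11:20543253-20653021, plus strand), had 22.0 to 37.8 CPM in wildtype and 17.3 to 22.4 CPM in cKO (-0.64 ± 0.12, adjusted p = 0.0753). Again wildtype male 2 alone reached the cKO range.

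Among genes of metabolism, Srm, the spermidine synthase, had a median of 31.3 CPM (17.4 to 41.4) in wildtype and 13.5 CPM (8.96 to 26.3) in cKO, where cKO male 1 was the highest. Sms, which encodes spermine synthase, the next enzyme of that pathway, had a median of 11.9 against 19.2 CPM (0.72 ± 0.31). Coq10b, a coenzyme Q-binding protein of mitochondria, had 14.0 to 22.9 CPM in wildtype and 5.35 to 15.4 CPM in cKO, again with cKO male 1 as the highest. Dio2, the deiodinase that converts thyroxine to its active form, split the cKO libraries: females 1 and 2 and males 2 and 3 had 124, 61.4, 53.8 and 87.0 CPM, while cKO female 3 (8.83) and cKO male 1 (13.9) lay in the wildtype range of 5.80 to 18.8 CPM. Slc16a10, a transporter of aromatic amino acids and thyroid hormone, had a median of 6.42 CPM in wildtype and 11.1 CPM in cKO (0.73 ± 0.27). Of the 8 thyroid hormone genes tested, these 2 were in the higher class and none was in the lower.

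Further genes of low p divided the libraries in different ways. Spon2, a secreted matrix protein, was at 48.3, 44.5, 73.8 and 25.9 CPM in cKO females 1 and 2 and males 2 and 3, and at 5.25 and 7.39 CPM in cKO female 3 and male 1, within the wildtype range of 1.20 to 14.5. Pcdh9, a protocadherin, had 22.7 to 34.3 CPM in wildtype, 12.2, 10.5 and 8.28 CPM in cKO females and 25.2, 19 and 16.8 CPM in cKO males. Mnt, a MAX partner that antagonises MYC, was at 23.1, 23.3 and 24.1 CPM in wildtype females. In the other 9 libraries it was at 10.8 to 16.3 CPM, so the 3 wildtype females stood above the wildtype males as well as above cKO.

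The circadian clock was the list with opposite differences by role. Of 30 clock genes tested, 6 had an unadjusted p under 0.05 with higher values in cKO and 15 with lower values, against 3.31% and 4.48% of all genes. None of the 30 passed after adjustment over all genes, and the lowest adjusted p was 0.0753, for Arntl. The promoters below were chosen from those that hold matches to the patterns searched and whose genes had low p in this comparison. Each run is the 250 bases before an annotated RefSeq start (GRCm38.p6), 5′ to 3′ on the strand of the gene. Capitals mark an E-box (CACGTG), a ROR element (TNGGTCA) or a D-box (TTANGTAA), searched on both strands, where N is any base. The name ROR element stands here for any match to that short pattern. The bases around it were not searched, so a match need not be a site that ROR or REV-ERB proteins bind. Ciart lies at chr3:95882229-95882478 (minus strand), Bhlhe41 at chr6:145865421-145865670 (minus), Per1 at chr11:69098699-69098948 (plus), Per3 at chr4:151044666-151044915 (minus) and Arntl at chr7:113207215-113207464 (plus).
Ciart: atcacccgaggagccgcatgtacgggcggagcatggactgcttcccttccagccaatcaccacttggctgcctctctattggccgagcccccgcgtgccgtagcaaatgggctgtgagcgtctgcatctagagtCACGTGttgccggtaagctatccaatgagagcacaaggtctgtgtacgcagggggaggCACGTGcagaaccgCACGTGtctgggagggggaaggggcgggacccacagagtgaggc
Bhlhe41: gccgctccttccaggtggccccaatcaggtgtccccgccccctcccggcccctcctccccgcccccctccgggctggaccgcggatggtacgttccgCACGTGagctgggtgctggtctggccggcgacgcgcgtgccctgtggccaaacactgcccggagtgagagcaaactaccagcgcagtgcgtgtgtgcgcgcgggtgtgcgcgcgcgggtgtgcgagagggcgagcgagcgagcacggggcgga
Per1: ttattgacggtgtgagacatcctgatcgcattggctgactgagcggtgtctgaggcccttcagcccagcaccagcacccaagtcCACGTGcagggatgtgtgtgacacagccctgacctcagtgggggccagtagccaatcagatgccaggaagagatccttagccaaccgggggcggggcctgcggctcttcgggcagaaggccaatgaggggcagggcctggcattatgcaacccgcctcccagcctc
Per3: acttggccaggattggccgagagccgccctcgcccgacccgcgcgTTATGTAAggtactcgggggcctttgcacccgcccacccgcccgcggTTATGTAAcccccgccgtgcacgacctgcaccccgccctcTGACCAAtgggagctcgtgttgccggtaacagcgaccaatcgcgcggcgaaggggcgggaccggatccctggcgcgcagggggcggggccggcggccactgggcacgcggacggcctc
Arntl: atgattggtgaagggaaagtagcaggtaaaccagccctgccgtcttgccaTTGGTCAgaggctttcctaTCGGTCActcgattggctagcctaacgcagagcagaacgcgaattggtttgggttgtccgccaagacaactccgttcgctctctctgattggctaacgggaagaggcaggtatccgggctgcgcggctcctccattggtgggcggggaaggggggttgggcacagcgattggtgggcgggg
The capitals are E-boxes in Ciart, Bhlhe41 and Per1, 2 D-boxes and a ROR element in Per3, and 2 ROR elements in Arntl. Ciart held 3 E-boxes, which begin 116, 58 and 44 bases before its start. Promoter sequence was matched for 24 of the 30 clock genes. A clock gene counted if any of its annotated starts had a match, whereas the percentages beside it are shares of single promoters. This difference of unit favours the clock genes. An E-box was in 6 of the 24 (Per1, Cry1, Ciart, Bhlhe41, Tef and Lonrf3), against 7.84% of promoters of tested genes. A ROR element was in 5 (Arntl, Per3, Cry2, Nfil3 and Tef), against 8.3%, a D-box in 3 (Per3, Rorb and Timeless), against 1.41%, and a cAMP response element (TGACGTCA) in 1 (Hlf), against 2.29%. Over all promoters in the table the shares were 6.02%, 9.19%, 2.06% and 1.55%. Other clock genes of low p, namely Nr1d1, Nr1d2, Dbp, Npas2, Clock, Rora and Por, held no match to any of these patterns. The promoters shown are thus not typical of the clock genes of low p. A match describes these letters and is no evidence that a factor binds there. Both directions occurred among genes with an E-box: Cry1 and Lonrf3 had higher values in cKO and the other 4 lower ones.

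Of the activators and ROR genes, 3 had higher and 1 had lower values at p under 0.05. Arntl was at 4.68, 2.7 and 2.57 CPM in wildtype females and 9.88, 6.59 and 8.70 CPM in wildtype males, against 48.4, 58.6 and 11 CPM in cKO females and 6.29, 42.2 and 34.5 CPM in cKO males (log2 fold change 2.64 ± 0.47). Thus 4 cKO libraries were at 34.5 CPM or more, while cKO female 3 was just above the highest wildtype library and cKO male 1 below 3 wildtype libraries. Npas2, which can replace CLOCK, split the same way, with 25.3 to 33.3 CPM in the 4 libraries and 0.690 and 2.04 CPM in cKO female 3 and male 1, against 1.17 to 7.37 CPM in wildtype (2.86 ± 0.72). Clock itself had 52.0 to 77.2 CPM in wildtype, 101 to 109.7 CPM in those 4 cKO libraries, and 63.1 and 71.5 CPM in cKO female 3 and male 1 (0.54 ± 0.13). Rora, an activator of Arntl, was lower, at a median of 163 against 126 CPM (-0.39 ± 0.13), and Rorb had a log2 fold change of 0.24 ± 0.45.

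Of 16 repressors and their regulators, 9 had lower and 3 had higher values at p under 0.05, and the median log2 fold change was -0.50. Per1 was at 154, 119 and 145 CPM in wildtype females and 26, 85.8 and 70.6 CPM in wildtype males, against 10.2, 10.2 and 34.8 CPM in cKO females and 84.0, 19.4 and 15.9 CPM in cKO males (-1.78 ± 0.41). Per2 was at 3.63 to 6.67 CPM in cKO females 1 and 2 and males 2 and 3, at 22.2 and 50.4 CPM in cKO female 3 and male 1, and at 14.7 to 72.2 CPM in wildtype (-1.58 ± 0.52). Per3, another period gene, was at 13.6 to 25.4 CPM in the same 4 libraries, at 83.4 and 131 CPM in cKO female 3 and male 1, and at 63.7 to 189 CPM in wildtype (-1.25 ± 0.42). The 4 libraries lay below every wildtype library for Per1, Per2 and Per3, and cKO male 1 lay within the wildtype range for all 3.

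Ciart, a repressor of the BMAL1-CLOCK pair that is also called CHRONO, had 16.2, 14.7 and 11.6 CPM in wildtype females and 3.77, 8.93 and 9.38 CPM in wildtype males. It had 0.463, 1.06 and 4.97 CPM in cKO females and 8.57, 0.559 and 0.328 CPM in cKO males, the most negative fold of the clock genes (-2.02 ± 0.55). The REV-ERB genes Nr1d1 and Nr1d2 had log2 fold changes of -0.94 ± 0.23 and -0.88 ± 0.29. For Nr1d2 the 4 libraries were at 36.9 to 51.2 CPM and all the rest, cKO female 3 and male 1 included, at 107 to 160.4 CPM. The E-box repressors Bhlhe40 (DEC1) and Bhlhe41 (DEC2) had -0.62 ± 0.18 and -1.27 ± 0.31, and Cry2 -0.39 ± 0.14.

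The repressors with higher values were Cry1 (0.43 ± 0.20), Nfil3, the repressor that opposes DBP at D-boxes (0.94 ± 0.33), and Timeless (0.55 ± 0.22). Cry1 was at 12.1 to 17.1 CPM in cKO and at 5.02 to 15.4 CPM in wildtype, where wildtype males 1 and 3 were the lowest. The regulators of protein stability Csnk1d, Csnk1e and Fbxl21 had log2 fold changes from -0.11 to -0.01.

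Of 8 output genes, 5 had lower and none had higher values at p under 0.05, with a median log2 fold change of -0.77. These were the PAR bZIP factors Dbp, Tef and Hlf, which activate D-box genes, the cell cycle kinase Wee1, and Por, the electron donor of cytochrome P450 enzymes. Dbp was at 13.1, 9.64, 10.6 and 12.7 CPM in the 4 libraries, at 103 and 109 CPM in cKO female 3 and male 1, and at 95.1 to 222 CPM in wildtype (-1.69 ± 0.54). Tef had a median of 169 CPM in wildtype and 57.2 CPM in cKO (-0.98 ± 0.29), Hlf 20.7 and 4.64 CPM (-1.18 ± 0.36), and Wee1 11.6 and 3.99 CPM (-1.17 ± 0.30). Por had 59.5 and 40.9 CPM (-0.56 ± 0.21). Usp2, Nampt and Lonrf3 had log2 fold changes of -0.47 ± 0.41, -0.15 ± 0.25 and 0.31 ± 0.26.

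**Figure D2:**
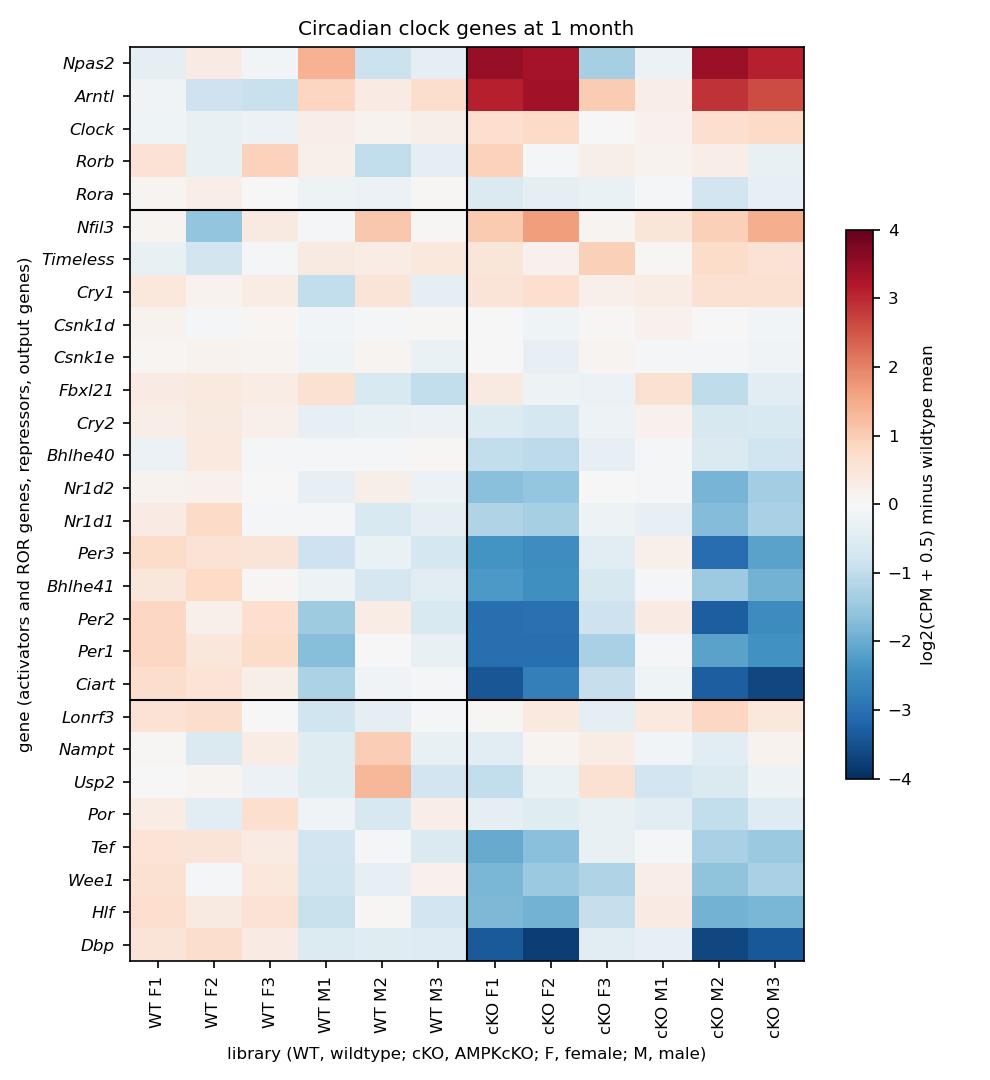
Levels of 28 clock genes (rows, in 3 groups by role) in each of the 12 libraries (columns); color is log2(CPM + 0.5) minus the wildtype mean of that gene. The columns of cKO females 1 and 2 and males 2 and 3 are strongly colored for the same genes, while cKO male 1 resembles wildtype and cKO female 3 lies between.

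Counted per library over the 21 clock genes with an unadjusted p under 0.05, the value lay outside the range of all 6 wildtype libraries, on the side of the group difference, for 18 genes in cKO female 1, 19 in cKO female 2, 20 in cKO male 2 and 20 in cKO male 3. The count was 6 in cKO female 3 and 0 in cKO male 1. These genes were chosen by a test that used the same libraries, so the counts are a description of how the libraries share the difference. Libraries of both sexes were on each side of this split. eGFP was at 854 to 1256 FPKM in cKO females 1 and 2 and males 2 and 3, at 898 FPKM in cKO female 3 and at 11.8 FPKM in cKO male 1. The relation of the split to sex or eGFP was not tested. Without cKO male 1, 13 clock genes passed an adjusted p of 0.05 (Arntl, Npas2 and Clock higher; Per1, Per2, Per3, Nr1d1, Nr1d2, Ciart, Bhlhe41, Dbp, Hlf and Wee1 lower). Without cKO female 3, 6 passed (Arntl and Clock higher; Per1, Nr1d1, Bhlhe41 and Dbp lower). With DESeq2 on all libraries, 7 passed (higher for Arntl, Npas2 and Clock, and lower for Per1, Nr1d1, Bhlhe41 and Wee1), and with no filter 14 passed. No clock gene passed with any other 1-month library left out. None passed with the robust estimate, RLE scaling, the stricter filter, the 1-month libraries alone, the replicate block, the additive sex term, the muscle covariate, voom or limma-trend. cKO male 1 and female 3 had the fewest of these genes outside the wildtype range, so the passes without them add no separate evidence.

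The wildtype libraries themselves differed by sex in these genes. All 15 clock genes with lower values in cKO at p under 0.05 had higher means in wildtype females than in wildtype males. Of the 6 with higher values at that p, 1 did so, Cry1. Per1 averaged 139 CPM in the 3 wildtype females and 60.8 CPM in the 3 males, Per3 175 and 76.1 CPM, Dbp 197 and 96.9 CPM, and Arntl 3.32 and 8.39 CPM. The genotype difference was therefore measured from a different wildtype level in each sex, and its log2 fold change was larger in females than in males for 20 of the 21 genes. Per1 had -2.95 ± 0.60 in females and -0.61 ± 0.56 in males (difference 2.34 ± 0.81, interaction adjusted p = 0.406), and Hlf -2.14 ± 0.51 and -0.23 ± 0.50 (adjusted p = 0.411). No clock gene passed the interaction test, and 7 of 30 had an unadjusted interaction p under 0.05, against 10.2% of all genes.

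Genes known to be induced by glucocorticoids, hormones that also vary over the day, were mostly lower in cKO. Of 16 in the list, which shares Per1 with the clock, 8 had lower and 1 had higher values at p under 0.05, and the median log2 fold change was -0.46. Over all genes tested, 4.48% had lower and 3.31% had higher values at that p. Cebpd, a C/EBP transcription factor (GRCm38 chr16:15887286-15891031, plus strand), was at 90.9, 46.4 and 65.8 CPM in wildtype females and 12.8, 11.4 and 17.9 CPM in cKO females, with no overlap. In males it was at 22.1, 24.6 and 38.2 CPM in wildtype and 42.8, 25 and 19.6 CPM in cKO, which overlapped (log2 fold change over both sexes -1.12 ± 0.21, adjusted p = 0.0817).

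Tsc22d3, which encodes the anti-inflammatory protein GILZ, had 188, 133 and 137 CPM in wildtype females, 57.0, 103 and 89.2 CPM in wildtype males, 27.3, 38.3 and 71.4 CPM in cKO females and 106, 72.5 and 50.4 CPM in cKO males (-0.94 ± 0.22, adjusted p = 0.229). Zbtb16, the zinc finger factor PLZF, had a median of 119 CPM in wildtype and 47.5 CPM in cKO (-1.03 ± 0.25). Fkbp5, a cochaperone of the glucocorticoid receptor chosen after its values were seen, had 13.3, 12.8, 16.5 and 19.6 CPM in cKO females 1 and 2 and males 2 and 3, and 53.8 and 43.4 CPM in cKO female 3 and male 1, against 17.9 to 65.2 CPM in wildtype (-0.83 ± 0.37). Fkbp5 thus showed the split of the cKO libraries seen in the clock genes. Tsc22d3 did not, with cKO male 2 (72.5 CPM) above cKO female 3 (71.4 CPM). Of the mTORC1 list, Ddit4 (REDD1), an inhibitor of mTORC1 that is also glucocorticoid-induced, had a median of 8.19 against 5.00 CPM (-0.94 ± 0.26).

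**Figure D3:**
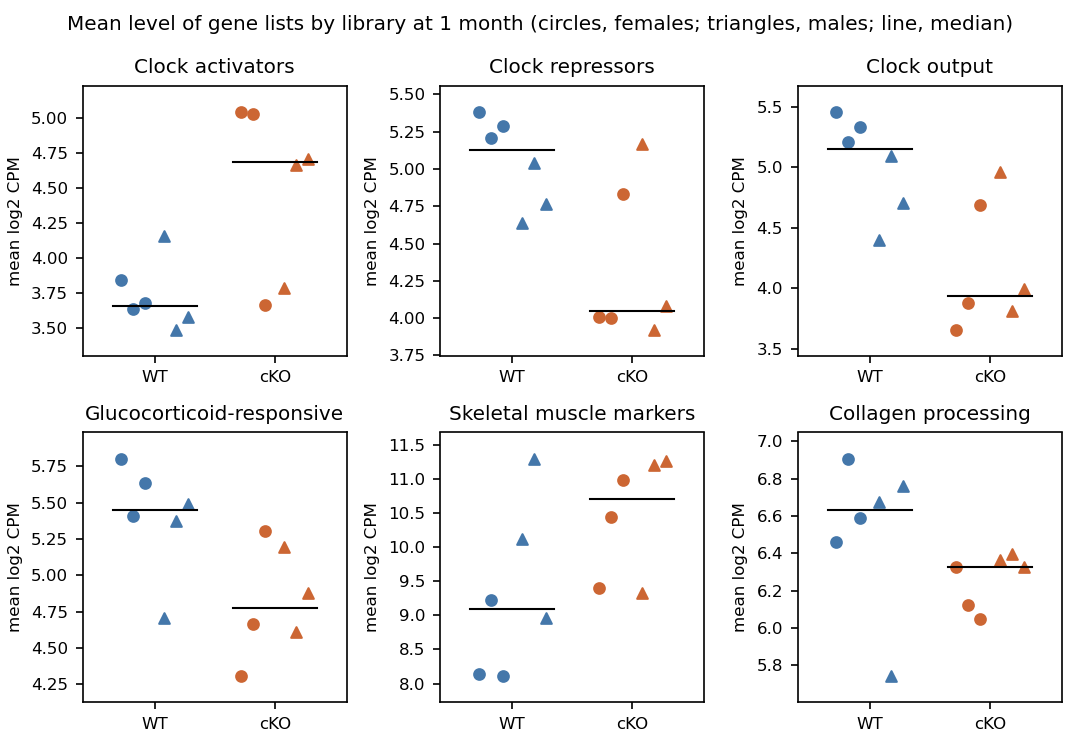
Mean log2 CPM of 6 gene lists in each library; circles are females, triangles males and lines group medians. For clock repressors and output genes, 4 cKO libraries lie below all wildtype libraries and cKO female 3 and male 1 lie with the wildtype; for skeletal muscle, wildtype male 2 has the highest value, 11.3.

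Of 17 genes of mTORC1 and its regulators, 2 had higher and 4 lower values at p under 0.05 (all genes: 3.31% and 4.48%). Besides Ddit4, the lower ones included Eif4ebp1, the translation repressor that mTORC1 inactivates (median 45.2 against 34.5 CPM, -0.45 ± 0.13), and Castor1, an arginine sensor (8.02 against 5.07 CPM, -0.50 ± 0.19). Sesn3, a sestrin that inhibits mTORC1, was among the higher ones (37.1 against 51.5 CPM, 0.41 ± 0.14). Of 16 genes of the growth hormone, IGF and insulin axis, 3 had lower and none had higher values at p under 0.05. They were Igf1r (-0.43 ± 0.11), Irs2 (-0.79 ± 0.23) and Igfbp4 (-0.62 ± 0.24). Igf1r, the IGF-I receptor, was at 116, 123 and 113 CPM in wildtype females and 48.4 to 79.3 CPM in the other 9 libraries, so the wildtype females alone stood apart. Irs2, the insulin receptor adaptor, had 62.3 to 100.3 CPM in wildtype and 25.7 to 67.5 CPM in cKO.

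Of 24 genes of TGF-β signalling and mechanical response, 5 had lower and 2 higher values at p under 0.05 (all genes: 4.48% and 3.31%). Besides Ccn2, the lower ones included Id1, a BMP-induced inhibitor of differentiation, at a median of 32.5 CPM in wildtype and 20.9 CPM in cKO (-0.76 ± 0.21), and Ccn1, the relative of Ccn2 induced by YAP, 116 against 66.7 CPM (-0.84 ± 0.28). By sex, the log2 fold change of Id1 was -0.77 in females and -0.75 in males, and that of Ccn1 -0.86 and -0.82.

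Genes of the collagen pathway had mostly lower values. Of 25 genes of collagen folding, modification and crosslinking, 23 had lower values, 5 of them at p under 0.05, with a median log2 fold change of -0.31. Of all genes tested, 48.5% had higher values, and 4.48% had lower values at p under 0.05. Plod1, a lysyl hydroxylase of collagen, had a median of 142 CPM in wildtype and 98.7 CPM in cKO (-0.48 ± 0.13). Fkbp10, a collagen chaperone and prolyl isomerase, had -0.60 ± 0.22, P3h4, a collagen-modifying factor of the leprecan family, -0.53 ± 0.23, and P4ha1, a prolyl hydroxylase subunit, -0.58 ± 0.23. In each of these 4 genes the lowest wildtype value was that of wildtype male 2 (85.2 CPM for Plod1, 61.0 for Fkbp10, 18.4 for P3h4 and 229 for P4ha1), the library with the largest Ttn share. Of 17 collagen genes, 11 had lower values and 1, Col15a1 of basement membranes, was at p under 0.05 (-0.65 ± 0.24). Muscle marker levels had higher values in cKO, with groups that overlapped, and their part in the lower matrix values was not tested. Adamts4, an aggrecan-cleaving protease, was the 1 gene of 18 matrix proteases and inhibitors at p under 0.05, at 0.354 to 3.77 CPM in wildtype and 6.81, 5.73, 0.828, 0.629, 13.8 and 6.45 CPM in the cKO libraries, so cKO female 3 and male 1 again lay with wildtype.

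Energy metabolism genes mostly had higher values in cKO over both sexes. All 27 nuclear-encoded oxidative phosphorylation genes and all 13 mitochondrially encoded genes had higher values in cKO, against 48.5% of all genes tested. Their median log2 fold changes were 0.34 and 0.32. None of the 27 and 1 of the 13 was at p under 0.05. Genes of 1 list can vary together, so such counts are not of independent genes. Of 18 glycolytic genes, 15 had higher values, 2 of them at p under 0.05. One was Pgam2, the muscle phosphoglycerate mutase, at a median of 107 CPM in wildtype and 330.5 CPM in cKO (1.28 ± 0.49). The fast muscle troponin genes Tnnc2 and Tnnt3 had 1.19 ± 0.47 and 1.36 ± 0.55. Of 20 fatty acid oxidation genes, 17 had higher values, none of them at p under 0.05. Cpt1a, the carnitine palmitoyltransferase of non-muscle mitochondria, was the 1 gene of the list at p under 0.05 and was lower in cKO, at a median of 43.0 CPM in wildtype and 21.7 CPM in cKO (-0.74 ± 0.21). The values over both sexes were not those of each sex: 11 of the 20 fatty acid oxidation genes had an interaction p under 0.05, against 10.2% of all genes, and none passed after adjustment. The mean log2 CPM of that list was 5.25, 5.24 and 5.32 in wildtype females and 5.23, 6.30 and 6.57 in cKO females, but 5.55, 6.27 and 5.27 in wildtype males and 5.05, 5.01 and 5.93 in cKO males. For the oxidative phosphorylation list it was 5.77 to 6.22 and 6.19 to 7.07 in wildtype and cKO females, and 5.82 to 7.38 and 6.20 to 6.96 in wildtype and cKO males, with wildtype male 2 the highest. The muscle markers were also highest in wildtype male 2, and the part of muscle in these values was not tested.

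No gene of the stress and other cell type lists passed. Over all genes tested, 3.31% had higher and 4.48% had lower values at p under 0.05. Of 12 heat shock genes, Hsph1 (0.79 ± 0.33) and Hsp90aa1 (0.33 ± 0.13) had higher and Dnajb1 (-0.34 ± 0.15) lower values at p under 0.05. Of 15 genes of the unfolded protein response, Hspa5, the ER chaperone BiP, was higher (0.27 ± 0.11) and Herpud1, of ER-associated degradation, lower (-0.50 ± 0.15). Of 19 immediate early genes, 4 were in the lower class, among them Fosb (-0.91 ± 0.29), Ier3 (-0.97 ± 0.33) and Junb (-0.44 ± 0.19), and none was in the higher class. For Fosb, cKO lay between 2.94 and 4.26 CPM, and wildtype males 2 and 3 were at 20.1 and 10.6 CPM. Of all genes tested, 48.5% had higher values in cKO and 10.2% had an interaction p under 0.05. All 22 ribosomal protein genes had lower values over both sexes, with a median of -0.21, and 12 of them had an interaction p under 0.05. Their mean log2 CPM was 7.71 to 7.92 in wildtype females and 7.16 to 7.42 in cKO females, but 7.01 to 7.27 in wildtype males and 7.05 to 7.55 in cKO males, which overlapped. Rpl18 was the 1 at p under 0.05, with 133, 121 and 121 CPM in wildtype females and 59.8 to 90.9 CPM in the other 9 libraries. Of 10 endothelial markers, 9 had higher values in cKO, with a median log2 fold change of 0.24. Kdr (VEGFR2) was in the higher class at 21.7 to 70.0 CPM in wildtype and 31.4 to 92.9 CPM in cKO (0.71 ± 0.22). By sex, the log2 fold change of Kdr was 1.39 in females and 0.02 in males. Erg, an ETS transcription factor named after its values were seen, was in the lower class at 16.5 to 27.1 CPM and 13.2 to 22.9 CPM (-0.30 ± 0.14). All 12 keratinocyte markers had lower values in cKO, and wildtype male 3 alone held most of their transcript: Krt10 was at 447 CPM there and at 0.675 to 1.97 CPM in the other 11 libraries. Without that library, its log2 fold change was 0.07.

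Consistency between libraries was also measured on genes chosen without the library in question. Each library was left out in turn, the model was refitted, and the 100 genes of smallest p in each direction were taken. The left-out library was then scored by the share of these 200 genes in which it lay nearer to its own genotype than to the other, beside the same share over all tested genes. The genotype means were averaged over both sexes, so no library was compared with its own sex alone. Differences between the sexes therefore enter these shares together with genotype. In wildtype females the share was 85%, 71.5% and 81.5% (over all genes 66.5%, 61.1% and 61.2%). In wildtype males it was 40%, 21% and 47% (49.5%, 34.0% and 49.6%). None of the 3 wildtype males reached its own side in most of the 200 genes, although with 50 genes wildtype male 3 did, at 56%.

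In cKO females the share was 69.5%, 82.5% and 49% (over all genes 47.6%, 59.0% and 58.0%), and in cKO males 11.5%, 76.5% and 74.5% (34.4%, 56.5% and 62.2%). Females 1 and 2 and males 2 and 3, the 4 libraries that carried the clock genes, took the cKO side in most of these genes, and cKO male 1 took the wildtype side.

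**Figure D4:**
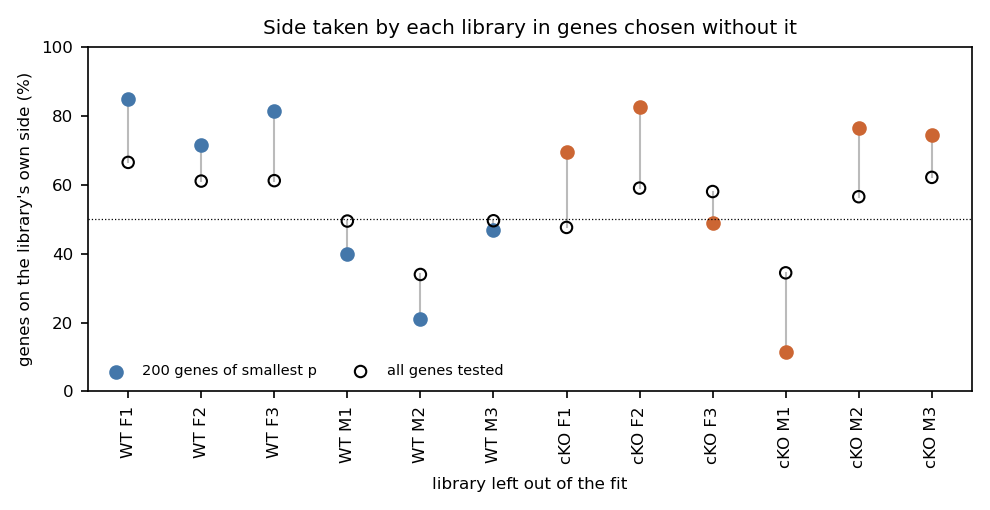
Share of genes (%) in which each left-out library lay on the side of its own genotype, for the 200 genes of smallest p chosen without it (filled; blue wildtype, orange cKO) and for all genes tested (open). The genotype means were averaged over both sexes. The lowest filled points are cKO male 1 at 11.5% and wildtype male 2 at 21%.

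A further set of genes was taken because the groups did not overlap, so that by this choice cKO female 3 and male 1 lie outside the wildtype range. In 11 genes (0.0575% of those tested) all 6 cKO libraries lay above all 6 wildtype libraries, and in 22 (0.115%) all lay below. Full separation in a given direction is 1 of the 924 arrangements of 12 libraries into groups of 6. Shares of this size can therefore arise with no genotype difference, and the counts are no evidence of one. The genes are described as such. Of these 33 genes, only Bop1 was called. Atat1, the α-tubulin acetyltransferase (GRCm38 chr17:35897595-35910075, minus strand), was at 1.91, 2.51 and 2.35 CPM in wildtype females and 2.20, 2.66 and 2.80 CPM in wildtype males, against 5.09, 3.66 and 4.56 CPM in cKO females and 3.85, 3.35 and 5.25 CPM in cKO males (0.83 ± 0.18, adjusted p = 0.193). Stac, an adaptor of voltage-gated calcium channels, had 0.784 to 2.34 CPM in wildtype and 2.52 to 4.09 CPM in cKO (1.12 ± 0.25). Here cKO male 1 and cKO female 3, at 4.09 and 3.87 CPM, were 2 of the 3 highest libraries. Rasl11a, a small GTPase of the Ras family, had 0.772 to 1.93 CPM in wildtype and 2.07 to 5.49 CPM in cKO (1.29 ± 0.32).

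Ppp1r8 (NIPP1), a nuclear inhibitor of protein phosphatase, had 10.3 to 12.6 CPM in wildtype and 13.1 to 16.5 CPM in cKO (0.43 ± 0.11). Ncbp2, the small subunit of the nuclear cap-binding complex, had 6.37 to 7.83 CPM in wildtype and 7.94 to 12.6 CPM in cKO (0.47 ± 0.14). Among the genes in which all cKO libraries were below, Slc6a17, a vesicular amino acid transporter, had 15.1, 15.2 and 12.8 CPM in wildtype females and 16.6, 13.7 and 20.4 CPM in wildtype males, against 7.28, 7.27 and 4.00 CPM in cKO females and 12.1, 7.27 and 8.86 CPM in cKO males (-1.01 ± 0.22). Cadm2, a cell adhesion molecule of the immunoglobulin family, had 9.92 to 13.1 CPM in wildtype and 5.56 to 8.65 CPM in cKO (-0.78 ± 0.24). The gap between the groups was narrow in several of these genes: for Slc6a17 the highest cKO library was at 12.1 CPM and the lowest wildtype library at 12.8 CPM.

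**Figure D5:**
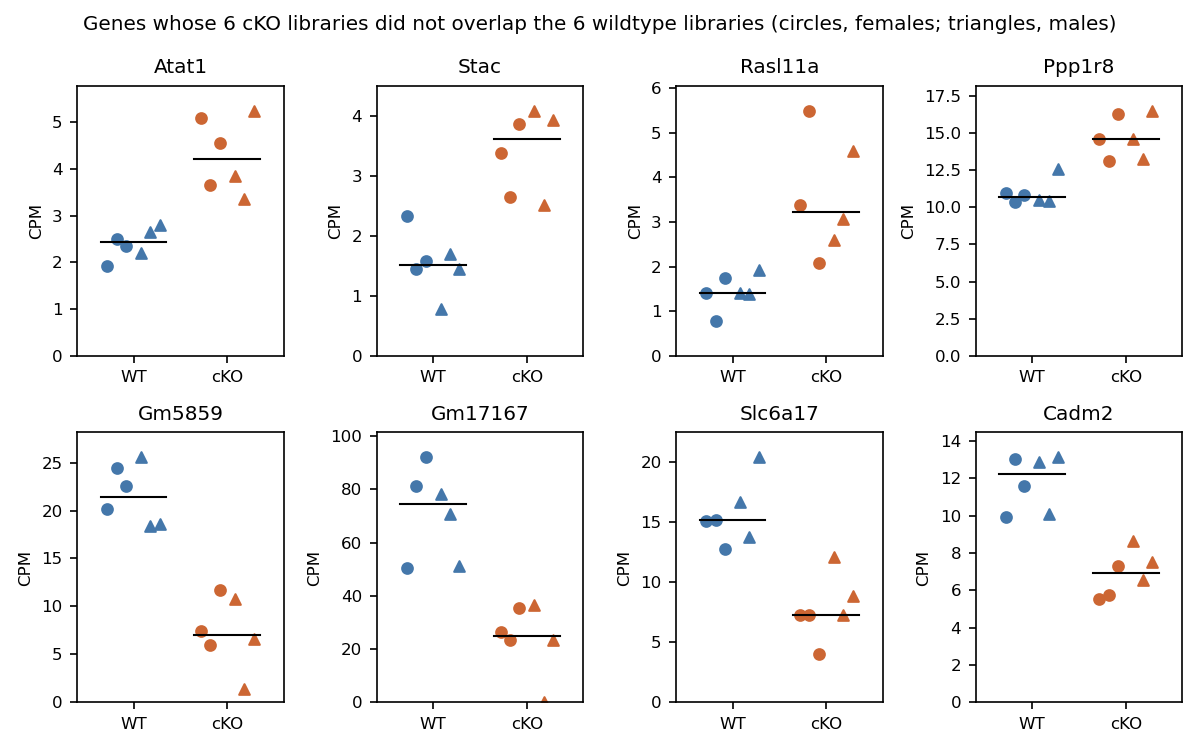
Levels in CPM of 8 genes whose 6 cKO libraries lay above (top) or below (bottom) all 6 wildtype libraries; circles are females, triangles males and lines group medians. For Gm5859 and Gm17167 the lowest point is cKO male 2, at 1.40 and 0.28 CPM.

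In the 12 libraries with no age in their titles (5 wildtype, 7 cKO), 1 of the 11 genes above (Bop1) and none of the 22 below again had groups that did not overlap. The shares of all genes that did so there were 0.0418% above and 0.0941% below. The difference of group medians had the same sign as at 1 month for 5 of the 11 and 14 of the 22 genes.

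Several of the genes below are unnamed transcripts of a repeated region of chromosome 4. Gm5859 (GRCm38 chr4:42236859-42239182, plus strand) had 18.4 to 25.6 CPM in wildtype, 7.41, 5.97 and 11.7 CPM in cKO females and 10.8, 1.40 and 6.56 CPM in cKO males (-1.57 ± 0.29, adjusted p = 0.0817). Gm17167 (chr4:42206998-42235313, plus strand) had 50.5 to 92.2 CPM in wildtype and 23.5 to 36.6 CPM in 5 cKO libraries, and 0.28 CPM in cKO male 2. Gm17081 (chr4:42239725-42240202, plus strand) likewise had 13.5 to 21 CPM in wildtype and 0.28 to 9.36 CPM in cKO. Of the 22 genes tested between 42 and 43 Mb, a window chosen after the values were seen, 17 had lower values in cKO. All 8 with an unadjusted p under 0.05 were lower, and the median log2 fold change was -0.58. Each of these 8 shares at least 95% identity over at least 50% of its transcript with another annotated gene, so how the counting divided reads among copies makes their values uncertain. Around Prkaa1 itself (chromosome 15, 3.0 to 7.3 Mb), 9 genes had higher and 15 lower values and 1 of the 24 was at p under 0.05.

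The genotype difference was also compared between the sexes. No gene passed the interaction test (0% called, lowest adjusted p = 0.130), and 1944 genes, 10.2%, had an unadjusted p under 0.05. DESeq2 called 36 genes for the same contrast. In the genes of lowest interaction p, the wildtype sexes differed from each other. Trp53inp1, a stress-induced target of p53, was at 50.3, 41.5 and 49.1 CPM in wildtype females, 19.5, 22.1 and 19.3 CPM in wildtype males, 21.8, 20.5 and 18.9 CPM in cKO females and 29.4, 17.2 and 23.2 CPM in cKO males. Its log2 fold change was -1.20 ± 0.18 in females and 0.20 ± 0.18 in males (difference 1.40 ± 0.25, adjusted p = 0.130). Cetn3, a centrin of the centrosome, was at 7.43 to 9.69 CPM in wildtype females, 15.6 to 22.8 in wildtype males, 12.5 to 21.1 in cKO females and 12.3 to 13.2 in cKO males (difference -1.46 ± 0.28, adjusted p = 0.182).

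Other genes with low interaction p had the same layout. Stmn2, a microtubule-destabilising phosphoprotein of neurons, had 0.850 to 1.74 CPM in wildtype females, 2.82 to 4.35 in wildtype males, 3.24 to 3.57 in cKO females and 1.40 to 2.04 in cKO males (difference -2.33 ± 0.41, adjusted p = 0.130). Grik5, a kainate receptor subunit, had 20.7 to 24.5 CPM in wildtype females and 9.25 to 12.2 in wildtype males, against 10.6 to 15 in cKO females and 13.9 to 23.8 in cKO males. Cebpd, of the glucocorticoid list, had a difference of similar size to Per1 (2.32 ± 0.42, adjusted p = 0.130). In Trp53inp1, Cetn3, Stmn2 and Grik5 the wildtype sexes did not overlap.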

How the data were processed

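Whole-tendon RNA of 12 libraries at 1 month was compared by genotype. The authors deposited expected counts from RSEM for each gene, unscaled and given as whole numbers, and FPKM values scaled to length and depth. RSEM 1.3.3, STAR 2.7.8a, cutadapt 2.3 and FastQC 0.11.8 are named in the submitters' processing notes, with the build GRCm38 (mm10); strand setting and annotation release are not given in the sources used here. Expected counts rounded to whole numbers were fitted in edgeR 4.0.16 (R 4.3.3): filterByExpr (minimum count 10, total 15), TMM, quasi-likelihood model with 8 group means over all 24 libraries, 16 residual degrees of freedom, biological coefficient of variation 31.2%, Benjamini-Hochberg adjustment over 19137 of 55487 genes. Sexes were weighted equally, and SE is the log2 fold change over the square root of F. FPKM served for cre and eGFP, which are in no count, and in limma-trend. Of tested identifiers, 99.9% were in GENCODE M21, which gave coordinates. Promoters came from RefSeq, and copies were sought with BLAST+ 2.17.0.

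The members, gene lists and tests were chosen with earlier results of these data known. Named genes, of at least 1 CPM over the 12 libraries and with a symbol, were the AMPK subunits, the 15 of smallest p in each direction, the 8 of largest median difference in each direction without overlap, all clock genes, up to 4 per other list (not all are printed), 5 per direction for genotype by sex, and overlapping neighbours of top genes. Fkbp5, Gm22146, Gm36569 and Erg were added after their values were seen. Alternatives were DESeq2 1.42.0, limma 3.58.1 (voom; trend on log2 of FPKM plus 0.1 or 1), RLE scaling, other filters, fewer libraries, an additive sex term, a muscle covariate, a replicate block, a robust spread estimate (added later) and each library left out. Some members of the lists are counted but not reported here by name. The procedure was tested on simulated data.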

Additional observations from a re-analysis of the deposited data

Results flagged for a closer look

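The following values stood apart from the other 5 libraries of their group by Dixon's test on log2(CPM + 0.5). Of 248 groups of gene values tested, 17 stood apart. At the 95% level used, chance alone could set apart most of that number, so single entries are listed without a conclusion. In cKO male 1, Bop1 was at 29.6 CPM (others 303 to 547), Scx at 51.0 (306 to 699), the chromosome 4 gene Gm21955 at 65.6 (17.5 to 28.6), Wee1 at 13.7 (2.78 to 4.56) and eGFP at 11.8 FPKM (854 to 1256). In cKO male 2, Gm5859 was at 1.40 CPM (5.97 to 11.7), Gm17081 at 0.28 (3.72 to 9.36), Gm17167 at 0.28 (23.5 to 36.6), Eif4ebp1 at 23.1 (32.9 to 37.7), Por at 28.1 (39.8 to 46.1) and Crtc2 at 6.15 (10.4 to 12.4), and the adipocyte marker list had a mean log2 CPM of 4.72 (6.25 to 6.68). Mnt was at 10.8 CPM in cKO female 2 (14.3 to 16.1) and Cetn3 at 21.1 in cKO female 3 (12.3 to 15).

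In wildtype male 3, Ppp1r8 was at 12.6 CPM (10.3 to 11) and Krt10 at 447 (0.675 to 1.82), and the keratinocyte list had a mean log2 CPM of 5.74 (-1.05 to -0.46). In wildtype male 2, Igfbp4 was at 185 CPM (424 to 623), Prkaa2 at 141 (17.3 to 37.7) and Gbp10, an interferon-induced GTPase, at 11.8 (0 to 1.06). The mean log2 CPM of the lists of fatty acid oxidation, oxidative phosphorylation and heat shock there was 6.27 (5.24 to 5.55), 7.38 (5.77 to 6.22) and 5.85 (5.08 to 5.36). The thyroid list had a mean log2 CPM of 4.28 in wildtype female 3 (3.76 to 3.94) and the neutrophil list 3.19 in wildtype male 1 (-2.61 to -0.53).

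Outside the gene counts, the FPKM table lists cre at 1.16 or more and eGFP at 11.8 or more in every cKO library, and both at 0 in every wildtype library.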

How the results depend on the processing

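The number of genes called for genotype, 2 in the main analysis, was 253 with no filter (171 higher, 82 lower), 77 with DESeq2 (23 and 54), 1 with the 12 libraries alone and with an additive sex term, and 0 with the robust estimate, the muscle covariate and limma-trend at either pseudocount (FPKM plus 0.1 or 1); voom called 2, 1 of them Arhgef4. Over the 24 libraries left out in turn it ranged from 0 to 57; of the libraries with no age in their titles, none was called without wildtype male 5 or 6, cKO female 5 or cKO male 6, Bop1 was lost without wildtype male 4 and Arhgef4 without cKO male 5. For genotype by sex, 0 genes were called in the main analysis, 238 with no filter, 36 with DESeq2 and 0 to 1 with a library left out (1 without cKO male 2). With a replicate block within sex on the 12 libraries (4 residual degrees of freedom) 0 genes were called; replicate numbers did not pair the libraries (correlations of same-numbered deviations -0.153 to 0.019). The number of genes whose libraries do not overlap, 33, became 48 to 317 when one library was left out, since fewer libraries have to be separated. Of 57 genes called without cKO male 1, 40 were also called by DESeq2, as were 16 of 18 without cKO female 3. Signs turned in 7 genes. The log2 fold change of Prkab2 was -0.18 with the muscle covariate. The log2 fold change of Csnk1d was 0.0121 with the muscle covariate, 0.0267 with no filter and 0.00827 with a filter of 1 CPM in 6 libraries, and ranged from -0.0268 to 0.0241 with a library left out. The log2 fold change of Fbxl21 was 0.00943 and 0.00234 on log2 of FPKM plus 0.1 and 1, and ranged from -0.61 to 0.41. With a library left out, the log2 fold change of Krt10 ranged from -3.59 to 0.0675, the log2 fold change of Usp2 from -0.72 to 0.0294, the log2 fold change of Nampt from -0.28 to 0.16 and the log2 fold change of Prkag1 from -0.18 to 0.0235. No setting moved the median log2 fold change of all genes by more than 0.1. The cause of these changes was not tested.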

Other observations

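A cluster of transcripts around Fkbp5 on chromosome 17 (GRCm38, 28.3 to 28.6 Mb, a window chosen after the values were seen) had lower values in cKO over both sexes, with larger folds in females. Of 8 genes tested there, 6 had an unadjusted p under 0.05, all lower, and the median log2 fold change was -1.30. Gm49839 was at 15.6, 2.7 and 10.6 CPM in wildtype females and 0.595, 0.434 and 0.276 CPM in cKO females, against 5.81, 5.53 and 18.7 CPM in wildtype males and 8.33, 1.96 and 1.86 CPM in cKO males (-2.82 ± 0.53, adjusted p = 0.0817). E230001N04Rik had -2.26 ± 0.50 (-4.11 in females and -0.41 in males), Gm22146 -3.10 ± 0.76 (-5.86 and -0.34), Gm49838 -1.77 ± 0.67 (-4.13 and 0.59) and Tead3, a partner of YAP on DNA, -0.35 ± 0.15 (-0.58 and -0.13). For the 3 transcripts before Tead3 and for Gm49839 (-4.37 and -1.26), the unadjusted interaction p was 0.00146, 0.00178, 0.0021 and 0.00818, and none passed after adjustment. Gm49839, Gm22146 and Gm49838 lie within the span of Fkbp5 (chr17:28399094-28517527, minus strand), so their reads and those of Fkbp5 may not be separable in counts whose strand setting is not given.

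Gm36569, an unnamed transcript on chromosome 3 chosen after its values were seen, had 0 counts in all 6 wildtype libraries and 10 to 19 counts in each cKO library, 80 in all. Against a floor of 3 counts over the wildtype group (0.047 CPM), the pooled cKO level of 1.11 CPM was at least 23.6-fold higher. Its transcript shares at least 95% identity over at least 50% of its length with Fam198b, so how reads were divided between the copies makes this value uncertain. In the 12 libraries with no age in their titles the wildtype group held 26 counts and the cKO libraries 0 to 14 each, so the absence in wildtype was not seen there.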
